A study of Penicillium oxalicum with 9 samples.

Results

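In Penicillium oxalicum, 20 of 9834 gene IDs were chosen because their transcripts were low in a mutant of the gene POX08340 and not similarly low in a mutant of POX01907. The rule was applied to FPKM, a read count scaled to gene length and library size. A gene was kept if its lowest value in the 6 libraries of the POX01907 mutant and the control was at least 5 FPKM, and at least 2 times its highest value in the 3 libraries of the POX08340 mutant. Genes whose highest value in the POX01907 mutant was no more than the lowest control value divided by 2 were left out, as were POX08340, POX01356 and POX09352 by name. Of 6491 IDs that reached the floor of 5 FPKM, 25 met the first condition and 20 were kept. Because these values chose the genes, the levels, fitted fold changes and calls of the 20 genes are a description, and no p-value is printed for them.

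The strains were MuPOX08340, a mutant of POX08340, MuPOX01907, a mutant of POX01907, and Ku70, the control, with 3 libraries each, lettered F, S and T. Ku70 bears the name of a gene of non-homologous end joining, a repair pathway that is often removed in fungi so that other genes can be replaced by homologous recombination. Beyond the strain names the labels give no genotype, and they do not say whether the mutants carry the change of Ku70 too. RNA came from mycelium at 24 h. The titles place both mutants in 1% starch and Ku70 in 1% Avicel, a microcrystalline cellulose, whereas the growth protocol names Avicel for every library. Strain and stated medium therefore cannot be told apart in comparisons with Ku70, and only the 2 mutants share a stated medium. The labels do not say how the mutants were made, whether each is 1 clone, or whether the libraries of a strain came from separate cultures, so the spread between libraries may be technical.

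Filamentous fungi feed on plant polysaccharides by secreting enzymes, and the genes of those enzymes are switched on by transcription factors that respond to the sugar at hand. Starch is broken down outside the cell by alpha-amylases, which cut within the chain, and glucoamylases, which release glucose from its ends. The stated purpose of the study was to examine transcription factors that act on amylase genes, and POX08340 and POX01907 are the genes it mutated. The files do not pair IDs with names, and 0 of the 9834 IDs matched a RefSeq table of the species (assembly ASM172317v3), so no function is given for any of the 20 genes and no sequence is shown.

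Expected counts, the estimated reads per gene, totalled 14412296 to 14802260 per library. POX08340 itself measured 0 FPKM in all 3 MuPOX08340 libraries, 8.26, 8.01 and 7.28 FPKM in MuPOX01907 F, S and T, and 30.6, 35.7 and 30.6 FPKM in Ku70 F, S and T. Its transcript was thus lower in MuPOX01907 than in Ku70 too, by a log2 fold change of -1.72 (SE 0.146, edgeR adjusted p = 0.000261). POX01907 measured 24.2, 20.4 and 19.9 FPKM in MuPOX08340, 0.01, 0.01 and 0.04 FPKM in MuPOX01907 and 22.9, 17.1 and 16.5 FPKM in Ku70, so both mutated genes were near 0 where the labels say. Ku70 F stood apart from the other 8 libraries: the median of POX00063, POX06783 and POX08484, known from the literature as genes of xylanases, enzymes that cut the plant polysaccharide xylan, was 1405 FPKM there and 18.5 to 25.9 FPKM elsewhere. Some of the results that rest on Ku70 F are given with and without it, and the others with all libraries only.

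Across the 20 genes, mean FPKM was 2.23- to 34.2-fold lower in MuPOX08340 than in Ku70, with a median of 4.72-fold, and 2.32- to 25.4-fold lower in MuPOX08340 than in MuPOX01907, with a median of 4.76-fold. The difference from Ku70 was at least 10-fold for 4 genes, POX09358, POX09361, POX07366 and POX01379, and under 4-fold for 8. In bulk RNA, fewer cells that express a gene and less RNA per cell cannot be told apart. EdgeR called 20 of the 20 lower in MuPOX08340 than in Ku70, where 5.14% of all tested genes were called lower. It likewise called 20 lower in MuPOX08340 than in MuPOX01907, against 10.4% of all tested genes. All 3 MuPOX08340 libraries lay below all 6 others for the 20 genes, and for 4.85% of genes over the floor. The rule used these comparisons, so nothing is read from the counts. A call here means an adjusted p under 0.05 and an absolute log2 fold change of at least 1.

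**Figure D1:**
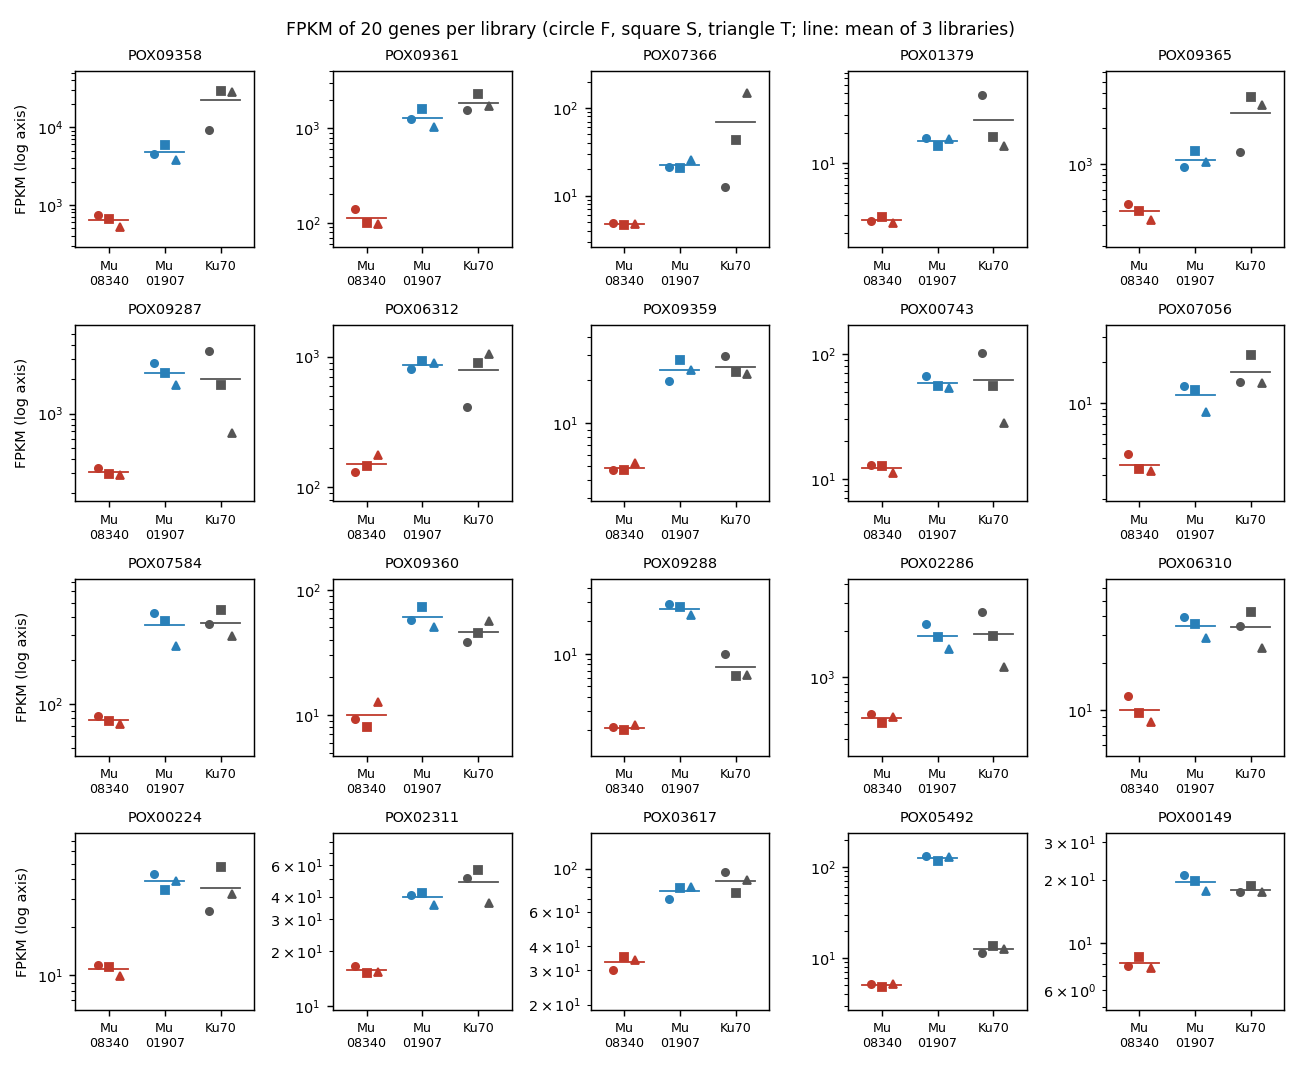
FPKM of the 20 genes in each of the 9 libraries, on log axes that differ between panels, with the strains from left to right MuPOX08340, MuPOX01907 and Ku70. Circles, squares and triangles are libraries F, S and T and lines are means of 3 libraries. In every panel the 3 MuPOX08340 points lie below the 6 others, as the rule requires, and POX07366 and POX09287 show the widest Ku70 spread (12- and 5.24-fold between the highest and lowest library).

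The most abundant of these transcripts was POX09358, whose ID stands 6 numbers after that of POX09352, an alpha-amylase gene in the literature on strain HP7-1. POX09358 measured 753, 665 and 525 FPKM in MuPOX08340 F, S and T, 4487, 5985 and 3785 FPKM in MuPOX01907, and 9257, 29076 and 28047 FPKM in Ku70. The 3 strains did not overlap, and Ku70 F lay well below Ku70 S and T. Ranked by FPKM among all IDs, it was number 1 in Ku70 S and Ku70 T and number 5 in Ku70 F, between 16 and 33 in MuPOX01907, and between 231 and 377 in MuPOX08340. Its mean was 34.2-fold lower in MuPOX08340 than in Ku70 and 7.34-fold lower than in MuPOX01907. Without Ku70 F, the difference from Ku70 was 44.1-fold.

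The ID of POX09358 opens a run of 4 consecutive IDs, POX09358 to POX09361, all chosen by the rule. POX09359 had 4.66, 4.72 and 5.27 FPKM in MuPOX08340, 19.7, 27.5 and 23.6 FPKM in MuPOX01907 and 29.5, 22.8 and 21.8 FPKM in Ku70. Its levels in MuPOX01907 and Ku70 overlapped, and its mean was 5.06-fold lower in MuPOX08340 than in Ku70. POX09360 measured 9.24, 7.94 and 12.8 FPKM in MuPOX08340, 57.3, 72.9 and 50.9 FPKM in MuPOX01907, and 38.0, 45.3 and 55.8 FPKM in Ku70, with MuPOX01907 and Ku70 again overlapping. For POX09361 the values were 141, 99.2 and 97.3 FPKM in MuPOX08340, 1269, 1587 and 1029.8 FPKM in MuPOX01907, and 1554, 2320.1 and 1716 FPKM in Ku70. This gene had the widest gap of the 20 between the strains: its lowest value in the other 6 libraries was 7.32 times its highest value in MuPOX08340. Its mean was 16.6-fold lower in MuPOX08340 than in Ku70 and 11.5-fold lower than in MuPOX01907.

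POX09365, whose ID lies 4 numbers further on, measured 459, 401 and 331 FPKM in MuPOX08340, 939, 1283 and 1032 FPKM in MuPOX01907 and 1268, 3666 and 3179.7 FPKM in Ku70. MuPOX01907 S exceeded Ku70 F, and all other MuPOX01907 values lay below all Ku70 values. The gene entered the set narrowly, its lowest value in the 6 libraries being 2.05 times its highest in MuPOX08340.

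Levels per library were then followed over the 14 consecutive IDs from POX09352 to POX09365, a stretch singled out after its values were seen. The 5 genes above were chosen for being low in MuPOX08340. Of the other 9 IDs, edgeR called 5 lower in MuPOX08340 than in Ku70, namely POX09352, POX09353, POX09357, POX09363 and POX09364, beside 5.14% of all tested genes. The count was 3 without MuPOX01907 F, MuPOX01907 S, MuPOX08340 S or MuPOX08340 T, and 3 with limma, and these 3 were POX09352, POX09357 and POX09364 each time. Of the 5, edgeR called 4 lower in MuPOX01907 than in Ku70 as well, all but POX09363, beside 12.9% of all tested genes. Against MuPOX01907, the strain that shares a stated medium, POX09364 alone of the 9 was called lower in MuPOX08340. POX09356 was called higher in that comparison, where 10.4% of all tested genes were called lower. POX09357 measured 10.8, 10.4 and 12.8 FPKM in MuPOX08340, 6.74, 7.55 and 5.40 FPKM in MuPOX01907, and 40.9, 105 and 35.5 FPKM in Ku70. POX09363 had 0.47, 0.20 and 0.61 FPKM in MuPOX08340, 1.88, 2.41 and 1.13 FPKM in MuPOX01907 and 2.18, 47.0 and 3.06 FPKM in Ku70. Ku70 S stood far above the other 8 libraries for this gene. Between the run and POX09365, POX09362 was measured at 47.7 ± 4.17 FPKM in MuPOX08340, 36.6 ± 1.40 in MuPOX01907 and 56.8 ± 21.8 in Ku70 (SD, n = 3 each) and was not called in MuPOX08340 against Ku70 (log2 -0.28, SE 0.241, edgeR adjusted p = 0.447). POX09354, POX09355 and POX09356 were not called in MuPOX08340 against Ku70 either. The files do not say if genes with successive numbers sit side by side in the genome.

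**Figure D2:**
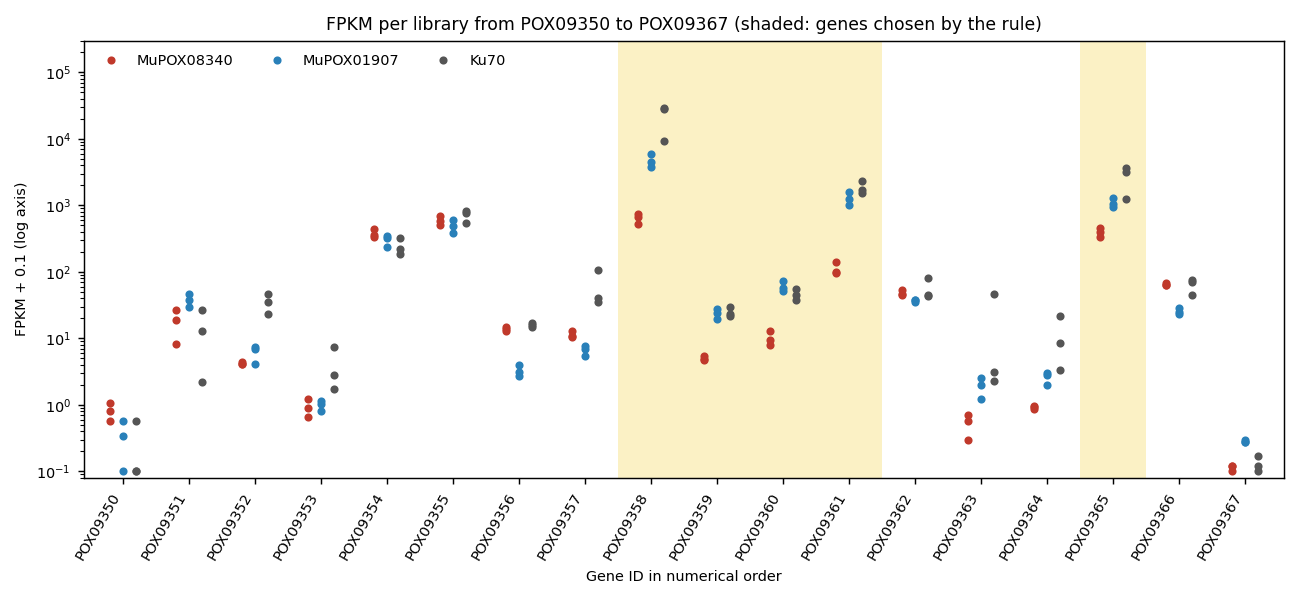
FPKM plus 0.1, on a log axis, of 18 IDs in numerical order from POX09350 to POX09367, with 1 point per library and, within each ID, MuPOX08340 in red, MuPOX01907 in blue and Ku70 in grey from left to right. Shading marks the 5 chosen genes. POX09358, POX09359, POX09360, POX09361 and POX09365 have all 3 red points below the others, as do POX09363 and POX09364 at lower levels, whereas POX09362 and POX09366 do not.

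A second place with consecutive IDs held POX09287 and POX09288. POX09287 measured 333, 295 and 289 FPKM in MuPOX08340, 2798, 2249.8 and 1787 FPKM in MuPOX01907, and 3526, 1770.3 and 673 FPKM in Ku70. MuPOX01907 and Ku70 overlapped through Ku70 F alone, which was 5.24 times Ku70 T. Without Ku70 F, the MuPOX01907 mean was 1.86-fold above that of Ku70, and edgeR called the gene higher in MuPOX01907. The mean was 6.51-fold lower in MuPOX08340 than in Ku70 with all libraries and 4.0-fold lower without Ku70 F. POX09288 was scarce, with 2.1, 1.98 and 2.19 FPKM in MuPOX08340, 28.6, 26.9 and 22.9 FPKM in MuPOX01907 and 9.98, 6.29 and 6.43 FPKM in Ku70. Here MuPOX01907 lay above Ku70 in all libraries. The smallest count behind any value of the 20 genes was 27 reads, for POX09288 in a MuPOX08340 library. On either side, POX09286 and POX09289 were not called in MuPOX08340 against Ku70 (log2 0.00 and 0.05, edgeR adjusted p = 0.988 and 0.941).

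In all, 6 of the 20 genes (30.0%) had another of the 20 at the next ID number, whereas 20 of the other 6471 genes over the floor (0.309%) did. POX06310 and POX06312 are 2 numbers apart, with POX06311 between them. POX06312 measured 129.7, 144 and 177 FPKM in MuPOX08340, 802, 921 and 888 FPKM in MuPOX01907, and 408, 894 and 1054 FPKM in Ku70. MuPOX01907 fell within the range of Ku70, where F was the low library. POX06310 had 12.4, 9.58 and 8.38 FPKM in MuPOX08340, 39.2, 35.2 and 29.0 FPKM in MuPOX01907 and 34.6, 42.2 and 24.9 FPKM in Ku70, which overlapped as well. POX06311, which is not among the 20, differed less, at 5.26 ± 0.919 FPKM in MuPOX08340, 8.37 ± 1.13 in MuPOX01907 and 8.43 ± 2.69 in Ku70 (SD, n = 3 each). EdgeR called it lower in MuPOX08340 than in MuPOX01907 (log2 -1.01, SE 0.238, edgeR adjusted p = 0.0109), at the edge of the fold minimum. Limma on log2(FPKM + 1) did not call it there (log2 -0.58, SE 0.218, limma adjusted p = 0.0555). It was not called by edgeR against Ku70 (log2 -0.69, SE 0.237, edgeR adjusted p = 0.0812).

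The IDs directly beside the 20 genes were examined next. There were 31 such IDs outside the set, and 29 of them were tested. They had been through the rule and failed it, and POX09357 and POX09364 also belong to the stretch singled out above. Of these, 6 (20.7%) were called lower in MuPOX08340 than in Ku70 and 1 was called higher, beside 5.14% of all tested genes called lower and 2.78% called higher. Against MuPOX01907, the strain that shares a stated medium, 10 (34.5%) were called lower in MuPOX08340, beside 10.4% of all tested genes. This count was 5 without MuPOX01907 F or MuPOX08340 S, 6 without MuPOX01907 S, MuPOX08340 F or MuPOX08340 T, and 5 with limma. The share of all genes called lower under these settings is not given, so these counts cannot be set beside a background. POX02287, POX07055, POX07367 and POX09364 were called lower in both comparisons. POX00150 and POX09357 were called against Ku70 alone, and POX00744, POX03616, POX05491, POX06309, POX06311 and POX07583 against MuPOX01907 alone.

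POX07367, next to POX07366, measured 22.6, 18.2 and 16.8 FPKM in MuPOX08340 and 68.5, 50.8 and 57.2 FPKM in Ku70 (log2 -1.64, SE 0.167, edgeR adjusted p = 0.000705), with no overlap. In MuPOX01907 it stood at 44.7, 44.4 and 49.2 FPKM, and it missed the rule with a ratio of 1.97. POX07055, next to POX07056, had 1.71, 1.34 and 1.25 FPKM in MuPOX08340, 8.10, 8.70 and 8.14 FPKM in MuPOX01907, and 16.7, 12.4 and 4.47 FPKM in Ku70. Its log2 fold change against Ku70 was -3.0 (SE 0.449, edgeR adjusted p = 0.0048), and it missed the rule by its floor.

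POX00150, next to POX00149, had a lower mean in both mutants, at 10.9 ± 1.48 FPKM in MuPOX08340, 11.4 ± 1.40 in MuPOX01907 and 24.1 ± 3.42 in Ku70 (SD, n = 3 each). Its log2 fold change in MuPOX08340 against Ku70 was -1.16 (SE 0.171, edgeR adjusted p = 0.00452). In MuPOX01907 against Ku70 it was -0.76 (SE 0.170, edgeR adjusted p = 0.0079), under the fold minimum and so not called. POX09357 and POX09364, which border the run and POX09365, had log2 fold changes of -2.45 (SE 0.404, edgeR adjusted p = 0.00742) and -3.78 (SE 0.641, edgeR adjusted p = 0.00853). The remaining call, POX02287 next to POX02286, was the weakest, at 5.14 ± 0.52 FPKM in MuPOX08340 and 13.2 ± 5.65 in Ku70 (SD, n = 3 each; log2 -1.38, SE 0.301, edgeR adjusted p = 0.0207). It was lost without Ku70 F, where the log2 fold change was -0.95, and without MuPOX08340 F, S or T (edgeR adjusted p = 0.05, 0.0755 and 0.078). The count was 5 without MuPOX08340 F, S or T in turn, and 7 without Ku70 F.

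Among the more abundant genes that stand alone, POX02286 measured 581, 510.4 and 553 FPKM in MuPOX08340, 2226, 1817 and 1518 FPKM in MuPOX01907 and 2650.1, 1859 and 1171 FPKM in Ku70. F was the highest and T the lowest library in both MuPOX01907 and Ku70. POX07584 measured 83.2, 76.4 and 72.3 FPKM in MuPOX08340, 429, 373 and 250.3 FPKM in MuPOX01907, and 355, 445 and 295 FPKM in Ku70. Its means in MuPOX01907 and Ku70 differed by less than their SD, at 351 ± 91.3 and 365 ± 75.8 FPKM (SD, n = 3 each).

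T was the lowest library for 8 of the 20 genes in both MuPOX01907 and Ku70, compared with 11.6% of all genes over the floor. T was the lowest MuPOX08340 library for 11 of the 20, compared with 47.0% of genes over the floor. What the letters stand for is not given in the labels.

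Other genes had lower levels. POX01379 measured 2.64, 2.86 and 2.5 FPKM in MuPOX08340, 17.6, 14.6 and 17.2 FPKM in MuPOX01907 and 48.1, 18.3 and 14.9 FPKM in Ku70. Its 10.2-fold lower mean in MuPOX08340 than in Ku70 was 6.23-fold without Ku70 F. POX07366 had the most uneven control of the set, with 4.88, 4.61 and 4.72 FPKM in MuPOX08340, 21.3, 20.6 and 25.7 FPKM in MuPOX01907, and 12.4, 43.2 and 149 FPKM in Ku70. The Ku70 libraries lay on both sides of MuPOX01907, and the 14.4-fold difference from Ku70 became 5.87-fold without Ku70 T. POX00743 likewise varied in Ku70, with 102, 55.2 and 28.2 FPKM, against 12.9, 12.8 and 11.1 FPKM in MuPOX08340 and 66.2, 55.8 and 53.1 FPKM in MuPOX01907.

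A further 5 genes differed less between MuPOX08340 and Ku70 than these. POX00149 had the smallest difference of all, 2.23-fold, with 7.79, 8.63 and 7.63 FPKM in MuPOX08340, 21.0, 19.6 and 17.7 FPKM in MuPOX01907 and 17.5, 18.6 and 17.4 FPKM in Ku70. POX03617 measured 29.9, 34.9 and 34.0 FPKM in MuPOX08340, 70.1, 79.1 and 80.5 FPKM in MuPOX01907, and 95.7, 75.1 and 87.6 FPKM in Ku70. POX02311 averaged 15.7 ± 0.777 FPKM in MuPOX08340, 39.6 ± 3.0 in MuPOX01907 and 48.0 ± 9.85 in Ku70 (SD, n = 3 each). For POX00224 the mean was 10.9 ± 0.915 FPKM in MuPOX08340, 38.9 ± 4.43 in MuPOX01907 and 35.3 ± 11.6 in Ku70 (SD, n = 3 each). MuPOX08340 lay below both other strains for each of these genes, and MuPOX01907 and Ku70 overlapped for all but POX07056. POX07056 averaged 3.57 ± 0.58 FPKM in MuPOX08340, 11.5 ± 2.52 in MuPOX01907 and 16.9 ± 4.78 in Ku70 (SD, n = 3 each).

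The rule limited MuPOX01907 against Ku70 on the lower side alone, and it bounded the comparisons with MuPOX08340 too. On the edgeR scale the median log2 fold change of the 20 genes in MuPOX01907 against Ku70 was 0.26. The median over all 8623 genes tested was -0.03. The range of the 20, from -1.89 to 3.68, was the widest of the 3 comparisons. Its upper end was POX05492, and the next highest gene, POX09288, had 2.11. Because the rule bounded the comparisons differently, these widths partly reflect the choice of genes. With FPKM as deposited, the medians were -0.02 for the 20 genes and -0.29 for all genes. The sign of the set's median thus depended on the scaling. The set's median lay above that of all genes in both. The rule favours this, and few lower calls, by leaving out genes low in MuPOX01907, so nothing is read from it. By mean FPKM, MuPOX01907 exceeded Ku70 for 8 of the 20 and lay under it for 12, whereas by edgeR it exceeded Ku70 for 14 and lay under it for 6. EdgeR called 2 of the 20 higher in MuPOX01907 than in Ku70, where 9.53% of all genes were called higher, and 1 lower, where 12.9% were called lower.

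The genes called higher were POX05492 and POX09288. POX05492 measured 134, 119 and 131 FPKM in MuPOX01907 and 11.3, 13.7 and 12.7 FPKM in Ku70, a 10.2-fold difference with no overlap. In MuPOX08340 it was at 5.16, 4.79 and 5.20 FPKM, so that the mutants stood on opposite sides of Ku70 and differed from each other by 25.4-fold. POX09288 was 3.45-fold higher in MuPOX01907 than in Ku70 and 12.5-fold higher in MuPOX01907 than in MuPOX08340. These were also the only genes of the 20 with all 3 MuPOX01907 libraries above all 3 of Ku70, which held for 15.7% of genes over the floor.

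The gene called lower was POX09358, for which the description of a gene lowered without POX08340 alone does not hold. Its mean in MuPOX01907 was 4.66-fold below that in Ku70 (log2 -1.89 by edgeR), and all 3 MuPOX01907 libraries lay below all 3 of Ku70. It passed the rule because its highest MuPOX01907 value, 5985 FPKM, was over the lowest Ku70 value, 9257 FPKM in Ku70 F, divided by 2. Without Ku70 F, neither POX09358 nor POX09365 met the rule. POX09365 had a mean 2.49-fold lower in MuPOX01907 than in Ku70 and a log2 fold change of -0.99 by edgeR, just under the fold minimum. Limma on log2(FPKM + 1) called it lower, with a log2 fold change of -1.19, and called 14.3% of all genes lower. Without Ku70 F, edgeR called 3 genes lower, POX07366, POX09358 and POX09365, and 3 higher, POX09287 in addition to POX05492 and POX09288. POX07056, too, had all 3 MuPOX01907 libraries below Ku70, though it was not called. The same order held for 38.9% of genes over the floor.

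**Figure D3:**
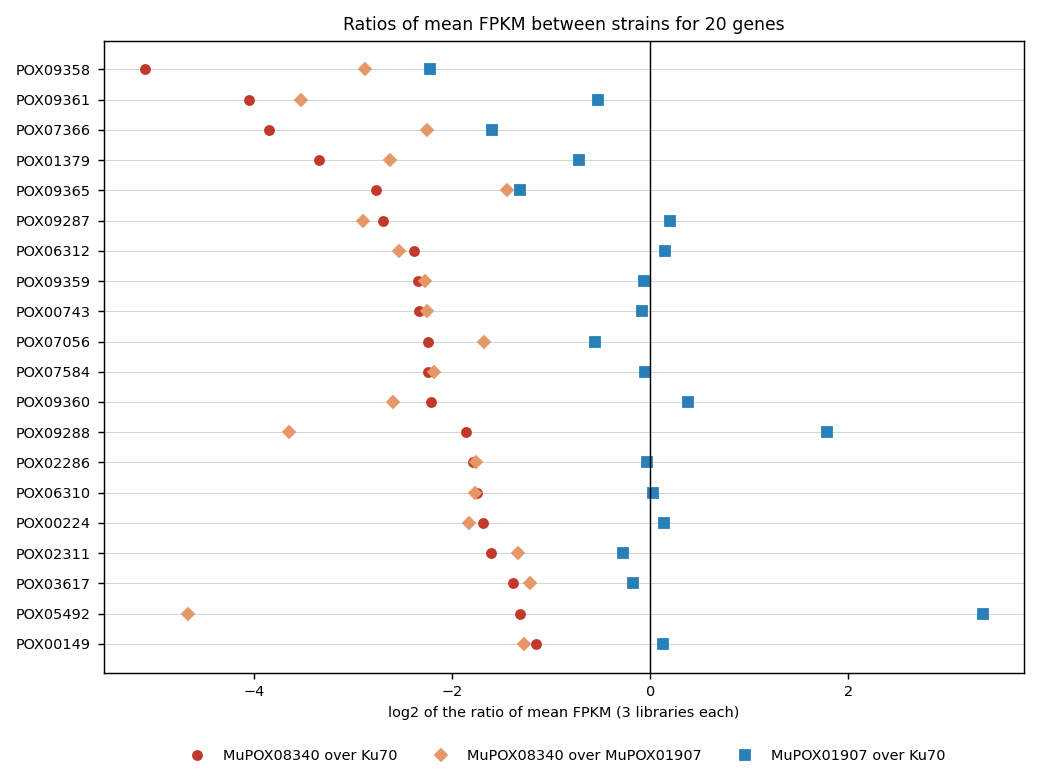
Log2 of the ratio of mean FPKM for each of the 20 genes, ordered from the largest to the smallest difference between MuPOX08340 and Ku70, with red circles for MuPOX08340 over Ku70, orange diamonds for MuPOX08340 over MuPOX01907 and blue squares for MuPOX01907 over Ku70. Circles and diamonds all lie left of 0. The squares range from POX09358, 4.66-fold lower in MuPOX01907 than in Ku70, to POX05492, 10.2-fold higher.

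Spread between libraries of a strain was widest in Ku70. The median coefficient of variation (SD as a share of the mean) of the 20 genes was 7.90% in MuPOX08340, 13.7% in MuPOX01907 and 28.0% in Ku70, beside 11.4%, 9.23% and 19.3% over all genes above the floor. The highest Ku70 library was at least 2 times the lowest for 8 of the 20, compared with 18.8% of genes over the floor, and for 0 of the 20 in either mutant. Ku70 F was the highest control library for 7 genes, POX00743, POX01379, POX02286, POX03617, POX09287, POX09288 and POX09359. It was the lowest for 8, POX00224, POX05492, POX06312, POX07366, POX09358, POX09360, POX09361 and POX09365. The shares for Ku70 F lie near those over genes above the floor, of which Ku70 F was the highest control library for 34.5% and the lowest for 45.8%. Ku70 T was the lowest control library for 10 of the 20, beside 22.6% of genes above the floor.

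**Figure D4:**
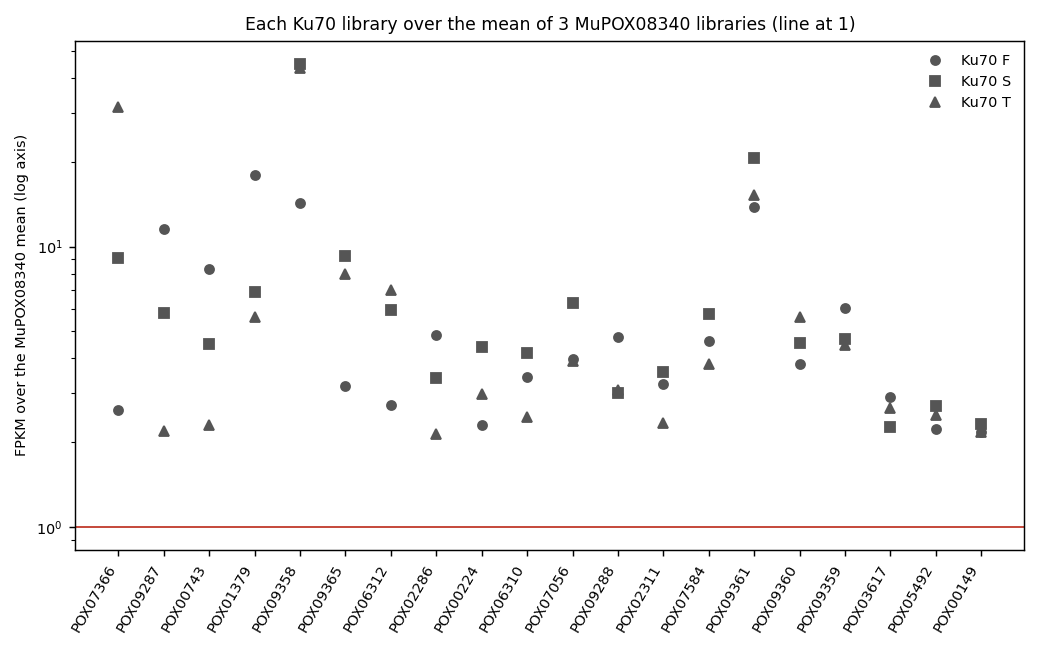
FPKM of each Ku70 library divided by the mean of the 3 MuPOX08340 libraries, on a log axis, for the 20 genes ordered by the spread of Ku70, with circles, squares and triangles for Ku70 F, S and T and a line at 1. POX07366 at the left runs from 2.62 in Ku70 F upward and POX00149 at the right is nearly even. All points lie above the line.

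Together the 20 genes took 0.220%, 0.198% and 0.181% of the expected counts in MuPOX08340 F, S and T, 1.01%, 1.15% and 0.858% in MuPOX01907, and 1.40%, 3.12% and 2.84% in Ku70. POX09358 alone accounted for 1.96% of the counts in Ku70 S and 1.89% in Ku70 T. Without POX09358, the other 19 took 0.156% ± 0.0124 in MuPOX08340, 0.688% ± 0.0751 in MuPOX01907 and 0.968% ± 0.194 in Ku70 (SD, n = 3 each). The median FPKM of the 20 genes was 12.2 ± 0.376 in MuPOX08340, 59.4 ± 6.51 in MuPOX01907 and 49.2 ± 2.62 in Ku70 (SD, n = 3 each).

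**Figure D5:**
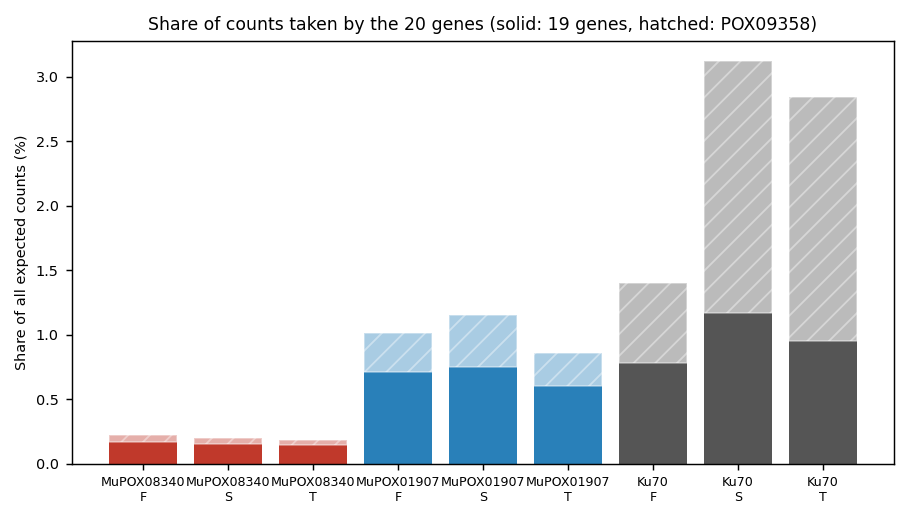
Share of all expected counts, in percent, taken by the 20 genes in each library, with MuPOX08340 in red, MuPOX01907 in blue and Ku70 in grey. The solid part of each bar is the sum over 19 genes and the hatched part is POX09358. The bars stand at 0.181% to 0.220% in MuPOX08340, 0.858% to 1.15% in MuPOX01907 and 1.40% to 3.12% in Ku70.

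Effective length, the length implied by the ratio of counts to FPKM, had a median of 1044 bases over the 20 genes. It was 1266 bases over all genes above the floor. This is not a measured length of the transcripts. The 5 genes with a Ku70 mean over 1000 FPKM, POX09358, POX09365, POX09287, POX02286 and POX09361, had a median of 673 bases, and the other 15 a median of 1125 bases. POX02286 had the shortest effective length, at 402 bases, and POX01379 the longest, at 1793 bases. Counts were whole numbers in all libraries for 18 of the 20. POX00224 and POX09288 had a fractional count in 1 library each, and 1320 IDs had one in the series as a whole.

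Membership turned on small margins for part of the set. The ratio of the lowest value in the 6 MuPOX01907 and Ku70 libraries to the highest in MuPOX08340 was under 2.5 for 12 genes and at least 3 for 5, POX09361, POX01379, POX09358, POX09359 and POX07584. Just inside the limit of 2 were POX03617 (2.01), POX06310 (2.01) and POX02286 (2.02, from 1171 over 581 FPKM). Just outside were POX00146 (1.99), POX09343 (1.97) and POX07367 (1.97). POX00146 had 20.9, 19.4 and 18.0 FPKM in MuPOX08340, 57.5, 54.4 and 55.7 FPKM in MuPOX01907 and 46.5, 46.1 and 41.6 FPKM in Ku70, a pattern close to that of POX00149. The same rule with the mutants exchanged chose 272 genes, and no count after rescaling is given for it. The median FPKM of genes above the floor was 33.2 to 34.4 in MuPOX01907 libraries. It was 41.4 to 42.2 in MuPOX08340 and 38.6 to 43.3 in Ku70. Whether this shift raised the count of 272 was not tested.

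Of the 25 genes that met the first condition, 3 besides POX08340 were left out because they were low in MuPOX01907 too, namely POX00669, POX05360 and POX09718. POX09718, for example, measured 2.41, 2.44 and 2.43 FPKM in MuPOX08340, 26.1, 23.2 and 14.5 FPKM in MuPOX01907, and 118, 61.1 and 95.3 FPKM in Ku70. All 3 strains were separate for this gene, with MuPOX01907 between MuPOX08340 and Ku70.

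POX01356, known in the HP7-1 literature as the gene of the raw-starch-digesting glucoamylase PoxGA15A, met the rule and was left out by name. It measured 23.8, 16.3 and 15.4 FPKM in MuPOX08340, 228, 206 and 194 FPKM in MuPOX01907 and 199.8, 404 and 121 FPKM in Ku70, with a ratio of 5.11 and MuPOX01907 inside the range of Ku70. The alpha-amylase gene POX09352 did not meet it, since it stood at 4.08, 3.95 and 4.26 FPKM in MuPOX08340, 7.21, 6.81 and 3.98 FPKM in MuPOX01907 and 34.9, 46.2 and 23.3 FPKM in Ku70. Of these starch enzyme genes, both were called lower in MuPOX08340 than in Ku70 by edgeR and POX09352 alone in MuPOX01907. Between the mutants, which share a stated medium, edgeR called POX01356 lower in MuPOX08340 than in MuPOX01907 (log2 -3.85). POX09352 was not called there (log2 -0.896, under the fold minimum). Because POX01356 met the rule, which used these comparisons, its calls are a description. POX03446, the gene of the starch enzyme regulator PoxRsrA, was not called in either mutant (log2 -0.70, SE 0.172, edgeR adjusted p = 0.0312 in MuPOX08340, and log2 -0.63, SE 0.172, edgeR adjusted p = 0.0187 in MuPOX01907, both against Ku70 and under the fold minimum).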

How the data were processed

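Each of the 9 deposited files gives, per the file headers, an expected count and an FPKM value for 9834 gene IDs. RSEM 1.2.12, Bowtie2 2.1.0, BWA 0.7.10-r789 and DESeq2 are named in the submitters' processing notes. The sources used here do not state what each did, nor the build, annotation, strand setting or handling of shared reads. FPKM values as deposited by the authors served for the choice of genes and all levels, and folds are ratios of group means. The expected counts deposited by the authors were rounded to whole numbers and tested with edgeR 4.0.16 in R 4.3.3 (TMM, filterByExpr, quasi-likelihood F test, all 3 strains in 1 fit, 8623 genes tested). The TMM factors were 0.847 to 0.868 in MuPOX01907, 1.08 to 1.10 in MuPOX08340 and 1.05 to 1.11 in Ku70. EdgeR fold changes include these factors and so differ from ratios of the FPKM values printed beside them. P-values were adjusted by Benjamini-Hochberg over all genes tested. The SE was derived from the log2 fold change and its F statistic. Limma 3.58.1 on log2(FPKM + 1) and DESeq2 1.42.0 on the counts were alternatives. The procedures were tested on simulated data. Counts were called whole within 1e-06.

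The members and lists were chosen with earlier results of these data known. Named genes were, of the 20, the 10 with the widest gap, the 8 most abundant in Ku70, runs and pairs of consecutive IDs, the 4 highest and 4 lowest in MuPOX01907 over Ku70, and 3 on each side of the limit. This rule named 16, and POX00149, POX00224, POX02311 and POX07056 were added so that all 20 are described. The roles of POX01356, POX09352, POX03446, POX00063, POX06783 and POX08484 were recalled from the literature, not read from the files. Library letters were checked as pairs by the correlation of deviations from group means across genes. It was 0.581, 0.101 and 0.470 for F, S and T between the 2 mutants, all over 0.1 but S only just. Between MuPOX08340 and Ku70 it was 0.0515, -0.174 and 0.263, so T was over 0.1 there too. Between MuPOX01907 and Ku70 it was -0.0637, -0.0618 and 0.0890. Values for unlike letters are not given, so whether the letters mark pairs cannot be decided from these.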

Additional observations from a re-analysis of the deposited data

How the results depend on the processing

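The choice of genes depended on its limits. It gave 65 genes with a ratio of at least 1.5 and 6 with a ratio of at least 3, 27 and 18 with floors of 1 and 10 FPKM, and 29, of which 18 were among the 20, after rescaling by TMM factors. The changed ratio also applied to the step that leaves out genes low in MuPOX01907. POX09358 was therefore lost at 1.5, and POX09718 joined 5 of the 20 at 3. With libraries left out in turn the choice gave 19 to 40 genes, 40 without Ku70 F (18 of the 20 among them), 36 without Ku70 T and 34 without MuPOX08340 F. After TMM rescaling, 10 of the 29 genes had another at the next ID number, against 6 of the 20, so the sets differ in size as well. The cause of these differences was not tested beyond the change of limit, scaling or libraries itself. The rule fixed the direction of the 20 genes in MuPOX08340 against both other strains, so their calls under other settings show no stability. Against Ku70, the calls lost were POX07366 and POX09287 without MuPOX08340 S, without MuPOX08340 T (18 genes called in each) and in a fit of MuPOX08340 and Ku70 alone (18 called), a setting chosen after the data were seen. Against MuPOX01907, POX07366 was lost in 4 of the fits without 1 library, leaving 19. In MuPOX01907 against Ku70 the 2 higher calls were 4 by adjusted p alone, and the 1 lower call was 2 by adjusted p alone, with limma, without a filter on low counts and with total counts, each adding POX09365. The range was 1 to 3 with libraries left out. With F, S and T as a replicate block, 20 genes were called lower in both comparisons, as in a paired fit of the mutants alone, and the block changed no other call among the 20. From POX09352 to POX09365, the 5 calls against Ku70 outside the 20 genes were 3 to 5, and 4 with the block. Of the ID neighbours, 10 were called lower in MuPOX08340 than in MuPOX01907, a count added after the data were seen. It was 5 with limma, 5 with total counts and 5 to 10 with libraries left out, without a share of all genes beside it, and the cause was not tested. Lowest counts of 27 to 69 reads for 5 of the 20 genes limit their precision.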
